A study of Mus musculus with 42 samples.

Results

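Small leucine-rich proteoglycans and matrix Gla protein are matrix proteins that mesenchymal cells secrete. Described here are 7 of their genes: Lum, Dcn, Bgn, Fmod, Ogn, Prelp and Mgp. They were chosen by name out of 54446 genes in the liver count table, with their fold changes between the groups of these mice already known, and each was among the 15574 genes that had enough counts for testing. All animals were female APOE*3-Leiden mice, which carry a human apolipoprotein E variant that slows the clearance of remnant lipoproteins. One group of 10 mice received chow. A second group of 16 mice received a Western-type diet (WTD) with 15% cocoa butter, 40.5% sucrose and 1% cholesterol, and the third group of 16 mice received the same diet with atorvastatin. WTD-fed mice were 8 to 14 weeks old at the start and had a run-in on WTD of 3 weeks. Atorvastatin was given at 3.0 mg/kg/day and at 4.5 mg/kg/day from week 5, and cholate (0.05%) was added to the diet of both WTD groups from week 22. Livers were taken at week 32, and the labels give no age for the chow-fed mice. The labels of the chow-fed mice all begin with AZ and those of the other mice with Gen, so a difference in origin and the difference in diet cannot be told apart.

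The core proteins of this family consist of leucine-rich repeats that bind collagen fibrils and set their diameter and spacing. Decorin and biglycan carry chondroitin or dermatan sulfate chains, whereas lumican, fibromodulin and osteoglycin can carry keratan sulfate. PRELP has a basic end that binds heparan sulfate. Matrix Gla protein is no proteoglycan. It is a small inhibitor of soft tissue calcification whose glutamate residues are carboxylated with vitamin K. In the liver these genes are known as products of portal fibroblasts, stellate cells and vessel walls, and their proteins accumulate in fibrous scars. In bulk liver RNA, a change in the number of such cells and a change in RNA per cell cannot be told apart.

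Each mouse gave 1 library, with between 15661381 and 36224054 counts on genes (median 19421089.5). In 9 sparse libraries, over 20% of the genes with a mean of 1 to 2 CPM in their group had no count, where CPM are counts scaled to the size of the library. These libraries came from 3 chow-fed, 5 WTD-fed and 1 atorvastatin-treated mice. Alb, the plasma albumin gene and a defining hepatocyte marker, was at 95000 ± 13410 CPM (SD, n = 10) in chow. Replicate 15 of the WTD group, a sparse library, stood apart: it had the lowest level of Lum, Dcn, Bgn, Fmod and Mgp among the 16 WTD-fed mice. Ogn ranked 4 and Prelp 9 from the lowest. In that mouse, the summed markers of portal fibroblasts (44.0 CPM), cholangiocytes (28.1 CPM) and macrophages (1169 CPM) were also the lowest of the 16, and those of hepatocytes (99940 CPM) the highest. Stellate cell markers ranked 6 from the lowest, and those of sinusoidal and vascular endothelium 14 and 15.

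The genes lie at 5 places in the genome (GRCm38). Dcn (ENSMUSG00000019929.16, chr10:97479609-97518143, plus strand) and Lum (ENSMUSG00000036446.5, chr10:97565128-97572703, plus strand) are neighbours, 46985 bases apart. Beyond Lum follow Kera and Epyc, 2 other family members for keratocan and epiphycan, with 0 counts in all 42 mice. Prelp (ENSMUSG00000041577.5, chr1:133910304-133921414, minus strand) and Fmod (ENSMUSG00000041559.7, chr1:134037254-134048277, plus strand) lie 115840 bases apart. On the other side of Prelp, 2305 bases away, lies the family member Optc, with 337 counts in all mice together. Ogn (ENSMUSG00000021390.6, chr13:49608046-49624501, plus strand) follows the family members Ecm2, Aspn and Omd and sits within the span of Cenpp on the other strand, which had 1199 counts in all mice together. Bgn (ENSMUSG00000031375.17, chrX:73483602-73495933, plus strand) and Mgp (ENSMUSG00000030218.2, chr6:136872435-136875823, minus strand) have no family member beside them. The libraries were strand-specific, which separates Ogn and Prelp from the genes on the opposite strand only if the counting used the strand, a setting not given in the sources used here.

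The promoter table of RefSeq (GRCm38.p6) holds 4 of the 7 genes, and these windows are shown beside the fold changes of the genes on WTD against chow, which on the log2 scale were 1.45 for Bgn, 2.82 for Fmod, 0.91 for Prelp and 0.75 for Ogn. Lum, Dcn and Mgp had no entry. Each window runs from 250 bases before to 50 bases after the start of the transcript and is printed 5′ to 3′ on the strand of the gene. Capitals mark matches on either strand to 7 motifs. The TATA box (TATAAA) was found in 13.6% of all 32851 promoters in the table. The TEAD motif (GGAATG) was found in 14.7% of them and the RUNX motif (TGTGGT) in 16.8%. A GC box (GGGCGG) occurred in 35.7% and an E-box (CANNTG) in 72.3%. The AP-1 motif (TGANTCA) was found in 7.81% and the palindromic SMAD box (GTCTAGAC) in 0.213%.
Bgn, chrX:73483351-73483650, plus strand: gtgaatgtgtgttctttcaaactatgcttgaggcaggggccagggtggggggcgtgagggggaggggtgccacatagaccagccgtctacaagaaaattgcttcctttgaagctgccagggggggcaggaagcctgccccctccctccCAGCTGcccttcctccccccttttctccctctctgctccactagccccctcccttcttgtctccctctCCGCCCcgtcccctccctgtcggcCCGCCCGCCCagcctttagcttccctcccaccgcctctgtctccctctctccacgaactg
Fmod, chr1:134037004-134037303, plus strand: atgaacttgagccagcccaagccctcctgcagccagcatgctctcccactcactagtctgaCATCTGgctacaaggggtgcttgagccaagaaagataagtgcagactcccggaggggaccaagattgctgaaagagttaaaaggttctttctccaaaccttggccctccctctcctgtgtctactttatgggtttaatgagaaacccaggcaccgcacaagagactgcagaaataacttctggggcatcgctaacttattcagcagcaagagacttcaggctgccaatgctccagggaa
Prelp, chr1:133921352-133921651, minus strand: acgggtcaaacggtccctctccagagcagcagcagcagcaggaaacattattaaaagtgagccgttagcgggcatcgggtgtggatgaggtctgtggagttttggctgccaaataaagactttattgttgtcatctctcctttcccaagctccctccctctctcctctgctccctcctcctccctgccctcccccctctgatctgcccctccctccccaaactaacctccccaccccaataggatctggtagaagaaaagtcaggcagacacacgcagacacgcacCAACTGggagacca
Ogn, chr13:49607765-49608064, plus strand: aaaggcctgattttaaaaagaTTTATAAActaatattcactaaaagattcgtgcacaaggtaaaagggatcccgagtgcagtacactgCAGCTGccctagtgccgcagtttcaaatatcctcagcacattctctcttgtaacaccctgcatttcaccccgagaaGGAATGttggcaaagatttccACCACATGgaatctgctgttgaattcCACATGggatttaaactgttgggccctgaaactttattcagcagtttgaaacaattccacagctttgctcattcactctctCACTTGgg
The Bgn window had 63.7% G and C, against a median of 52.7% over all promoters, and held 3 GC boxes, of which the 2 nearest the start overlap. In the Fmod (51.0%) and Prelp (55.3%) windows, 1 E-box each was the sole match. Ogn had the lowest share of G and C of the 4 (42.3%) and held TATAAA on both strands at one overlapping place, a TEAD match, a RUNX match that overlaps an E-box, and 4 E-boxes in all. None of the 4 windows held the AP-1 or SMAD letters. A match describes letters and not binding.

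Levels per kilobase of exon allow the genes to be ranked within a group. The length used was that of all annotated exons of a gene together, from 1187 bases (Mgp) to 6099 (Bgn). Which transcripts were expressed was not measured, so the ranks and shares depend on these lengths. In chow, Dcn led with 41.1 ± 5.36 CPM per kb (SD, n = 10), followed by Bgn (31.8 ± 3.90), Prelp (19.5 ± 4.43) and Lum (6.02 ± 1.66). This order held from each gene to the next in 10 of 10 mice. The lowest were Mgp (1.76 ± 1.04), Ogn (1.21 ± 0.587) and Fmod (0.702 ± 0.546), where neighbours kept their order in 7 of 10 mice. On WTD, Bgn (86.6 ± 15.8 CPM per kb, n = 16) and Dcn (81.9 ± 11.6) were at the top and changed places among mice, with Bgn ahead in 9 of 16. Lum was then at 53.4 ± 21.7 CPM per kb, above Prelp (36.7 ± 3.92) in 13 of 16 mice. With atorvastatin, Lum (20.7 ± 9.23 CPM per kb) was below Prelp (37.0 ± 4.28) in 16 of 16 mice. Lum thereby made up a median of 5.98% of the summed CPM per kb of the 7 genes in chow, 19.8% on WTD and 8.55% with atorvastatin.

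To see how the diet and the statin moved these genes, each was compared between groups with the quasi-likelihood test of edgeR, with p-values adjusted over all tested genes by the method of Benjamini and Hochberg and called under 0.01. These p-values describe the genes and are no independent support, because the list was made with such results in view. All but Ogn of the 7 genes, that is 6, rose on WTD against chow, beside 33.5% of all tested genes called and 17.5% called higher. Their median log2 fold change over all 7 was 1.45, and that of all tested genes was 0.03. With atorvastatin against WTD, Lum, Dcn and Mgp fell, beside 7.10% of all genes called, with 4.84% higher and 2.26% lower. Of the calls among all genes in this comparison, 68.2% were higher, against 54.9% with RLE scaling and 51.2% by DESeq2. The median log2 fold change of the 7 was -0.26, against 0.002 over all genes. In atorvastatin-treated mice against chow-fed mice, Lum, Dcn, Bgn, Fmod and Prelp were higher, beside 25.0% of all genes called and 14.2% called higher. The WTD-fed mice enter both of the first 2 comparisons, so a high value in them moves both in opposite directions.

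**Figure D1:**
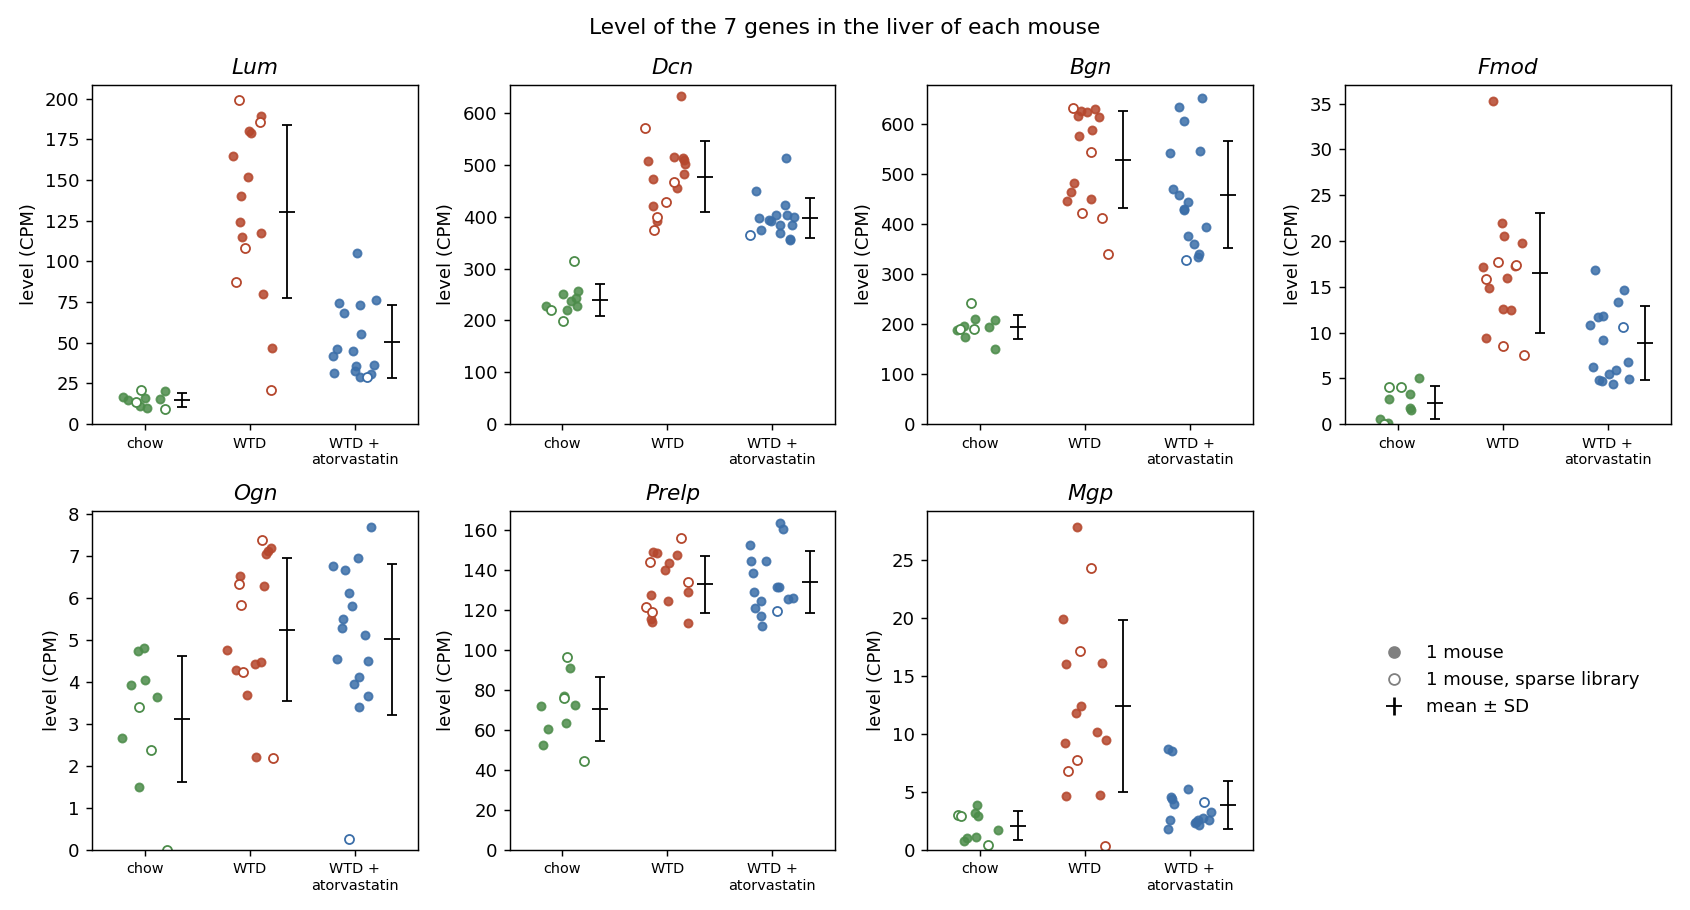
Level of each gene in CPM (y axis, linear, from 0) in each mouse by group (x axis), where open points are sparse libraries and bars give the mean ± SD. Dcn, Bgn, Fmod and Prelp show no overlap between chow and WTD, and all 16 atorvastatin-treated mice are below the WTD median for Lum (132 CPM) and Mgp (11.0 CPM).

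Lum encodes lumican. Its log2 ratio to Fmod did not differ detectably between WTD and chow (difference 0.08, adjusted p = 0.81 by the permutation test of ratios). That ratio varied widely in chow (SD 1.13, n = 10), where Fmod was near 0. Between atorvastatin and WTD the ratio differed by -0.41 (adjusted p = 0.034 by the same test). The levels of Lum were 9.20, 14.9 and 21.2 CPM (lowest, median and highest) in chow, 20.97, 132 and 199 CPM on WTD, and 28.9, 43.5 and 105 CPM with atorvastatin. All WTD-fed mice but replicate 15 were above the highest chow-fed mouse, and all 16 atorvastatin-treated mice were below the WTD median and above every chow-fed mouse. The mean was 8.85-fold higher on WTD than in chow (95% interval 5.96 to 13.2, adjusted p = 7.5e-12) and 2.57-fold lower with atorvastatin than on WTD (log2 fold change -1.36, SE 0.22, adjusted p = 6e-05). Atorvastatin-treated mice were 3.44-fold above chow (95% interval 2.38 to 4.99, adjusted p = 1.4e-06). Without replicate 15 of the WTD group, the log2 fold changes were 3.23 on WTD and -1.44 with atorvastatin.

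Dcn encodes decorin, which binds collagen fibrils and TGF-β. In chow its levels were 199, 233 and 315 CPM (lowest, median and highest), on WTD 375, 478 and 633 CPM, and with atorvastatin 355, 393 and 514 CPM. The chow-fed mice did not overlap with either other group, while the latter groups overlapped widely. Dcn was 1.99-fold higher on WTD (95% interval 1.80 to 2.21, adjusted p = 8.8e-16). It was 1.20-fold lower with atorvastatin than on WTD (log2 fold change -0.26, SE 0.06, adjusted p = 0.0033), with 15 of 16 mice below the WTD median. The chow value of 315 CPM belongs to replicate 6, a sparse library.

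Bgn encodes biglycan, the closest relative of decorin, which also acts on Toll-like receptors when it is released from the matrix. Its levels were 150, 192 and 241 CPM (lowest, median and highest) in chow, 339, 559 and 631 CPM on WTD, and 327, 437 and 652 CPM with atorvastatin. No chow-fed mouse reached the range of the other groups, whose ranges were nearly the same. The rise on WTD was 2.72-fold (95% interval 2.34 to 3.18, adjusted p = 1.6e-15). With atorvastatin the log2 fold change against WTD was -0.20 (SE 0.09, adjusted p = 0.16) with the interval of the fold from 0.764 to 0.986, and 13 of 16 mice were below the WTD median. By limma-voom it was -0.34 (adjusted p = 0.0011).

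Prelp had 44.6, 72.0 and 96.2 CPM (lowest, median and highest) in chow, 113, 131 and 156 CPM on WTD, and 112, 130 and 164 CPM with atorvastatin. All WTD-fed mice, treated or not, were above all chow-fed mice. The gene rose 1.89-fold on WTD (95% interval 1.67 to 2.12, adjusted p = 1.3e-12). Between treated and untreated WTD-fed mice the log2 fold change was 0.01 (SE 0.07, adjusted p = 0.96), and the interval of the fold ran from 0.910 to 1.11. With RLE scaling it was -0.03.

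Fmod encodes fibromodulin, which competes with lumican for a site on collagen. It was weakly expressed, with 0, 2.25 and 5.07 CPM (lowest, median and highest) in chow, 7.57, 16.6 and 35.3 CPM on WTD, and 4.32, 7.97 and 16.8 CPM with atorvastatin. The 1 chow-fed mouse at 0 was replicate 2, a sparse library. Replicates 3 (1 count, 0.066 CPM) and 1 (10 counts, 0.595 CPM) were also near 0, and their libraries were not sparse. Chow and WTD did not overlap, and the gene was 7.06-fold higher on WTD (95% interval 4.16 to 12.0, adjusted p = 5.7e-08). With atorvastatin, 15 of 16 mice were below the WTD median and 8 were below the lowest WTD-fed mouse. The log2 fold change of -0.89 (SE 0.30, adjusted p = 0.039) missed the threshold of 0.01, which it passed by limma-voom and in a fit of the 2 WTD groups alone.

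Ogn, the gene of osteoglycin, was at 0, 3.52 and 4.80 CPM (lowest, median and highest) in chow, 2.19, 5.29 and 7.38 CPM on WTD, and 0.245, 5.21 and 7.69 CPM with atorvastatin. All groups overlapped, and the lowest mice of chow and atorvastatin were sparse libraries. The log2 fold change on WTD was 0.75 (SE 0.35, adjusted p = 0.076), with an interval of the fold from 1.05 to 2.69. With atorvastatin against WTD it was -0.06 (SE 0.30, adjusted p = 0.94), and 0.03 without the sparse libraries.

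Mgp, the gene of matrix Gla protein, had 0.383, 2.31 and 3.87 CPM (lowest, median and highest) in chow, 0.338, 11.0 and 27.9 CPM on WTD, and 1.81, 3.00 and 8.67 CPM with atorvastatin. The lowest WTD value, from 8 counts, is that of replicate 15, and the other 15 WTD-fed mice were above all chow-fed mice. Mgp rose 5.90-fold on WTD (95% interval 3.43 to 10.2, adjusted p = 4.9e-07). It was 3.20-fold lower with atorvastatin (log2 fold change -1.68, SE 0.32, adjusted p = 0.00022), with 16 of 16 mice below the WTD median. Against chow, atorvastatin-treated mice had a log2 fold change of 0.89 (SE 0.37, adjusted p = 0.061), and 7 of 16 were above the highest chow-fed mouse. Without replicate 15, the log2 fold changes were 2.65 on WTD and -1.77 with atorvastatin.

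Dcn, Bgn, Fmod and Prelp did not overlap between WTD and chow, where 3.40% of all genes were higher and 2.43% lower without overlap. Lum, Dcn, Bgn and Prelp did not overlap between atorvastatin and chow, where the shares of all genes were 2.88% higher and 1.50% lower. No member was without overlap between atorvastatin and WTD, and among all tested genes 1 was (0.00642%, higher with atorvastatin). The summed level of the 7 genes was 446 to 683 CPM (median 518) in chow, 880.5 to 1613 CPM (median 1383) on WTD and 856 to 1442 CPM (median 1044) with atorvastatin.

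**Figure D2:**
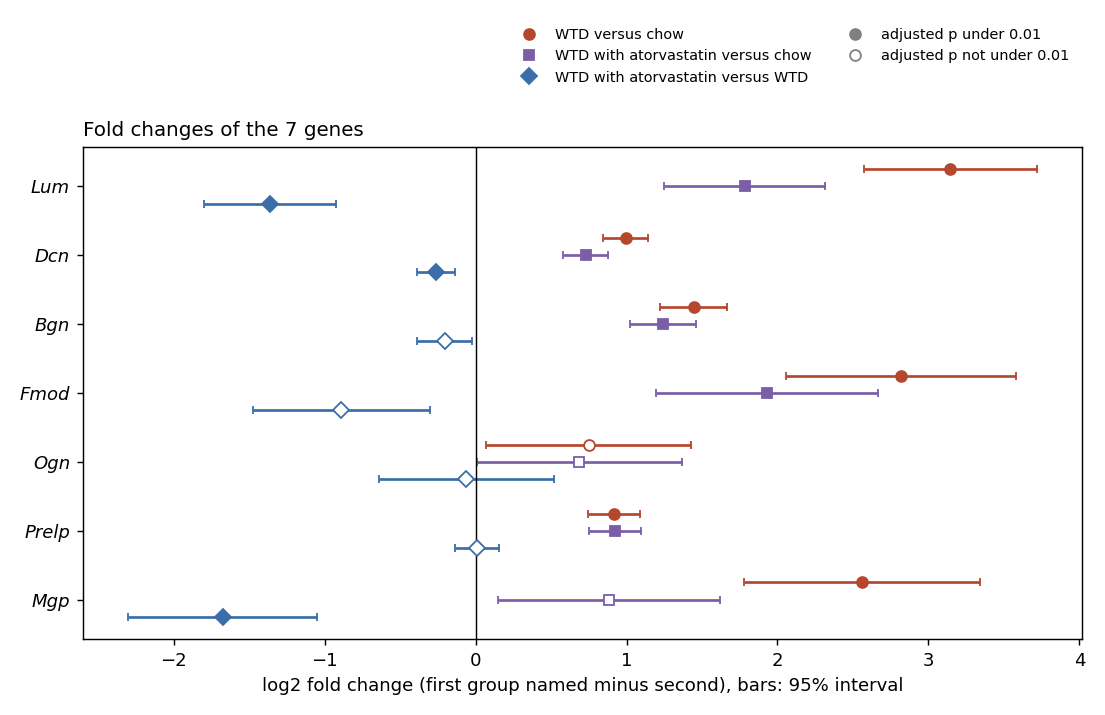
Log2 fold change of each gene (x axis) in the 3 comparisons, with bars for the 95% interval and filled marks for an adjusted p under 0.01. The atorvastatin effect against WTD ranges from -1.68 (Mgp) to 0.01 (Prelp), and all 7 genes are on the positive side in both comparisons with chow.

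Whether the genes moved by different amounts was tested directly by the log2 ratio of CPM (plus 0.5) of 2 members within each mouse. Permutation tests (two-sided, 100000 resamples, adjusted over 42 tests, threshold 0.05) were run for the 21 pairs in 2 comparisons, and like the fold changes they describe genes chosen with results in view. The ratio differed between WTD and chow for 14 of 21 pairs and between atorvastatin and WTD for 15 of 21 pairs. Neighbouring genes did not keep a fixed ratio. Lum and its neighbour Dcn had a log2 ratio of -4.02 ± 0.33 (SD, n = 10) in chow, -2.03 ± 0.72 (n = 16) on WTD and -3.07 ± 0.49 (n = 16) with atorvastatin. Both shifts passed the permutation test (1.99, adjusted p = 7e-05, where p is the smallest the test can give, and -1.04, adjusted p = 0.00026). Fmod and its neighbour Prelp shifted by 1.96 on WTD (adjusted p = 7e-05) and by -0.90 with atorvastatin (adjusted p = 0.00034 by permutation). The log2 ratio of Lum to Mgp, from different chromosomes, differed by 0.07 between atorvastatin and WTD (adjusted p = 0.73 by permutation). Between WTD and chow it differed by 0.81 (adjusted p = 0.0057 by permutation).

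The pair of closest relatives, Dcn and Bgn, went from a log2 ratio of 0.31 ± 0.14 (SD, n = 10) in chow to -0.13 ± 0.20 (n = 16) on WTD (adjusted p = 7e-05 by permutation). With atorvastatin it was -0.17 ± 0.28 (n = 16), a difference of -0.04 (adjusted p = 0.71 by permutation). Bgn against Prelp shifted by 0.49 on WTD (adjusted p = 0.00039) and by -0.23 with atorvastatin (adjusted p = 0.017 by permutation). Dcn against Prelp was at 1.79 ± 0.28 in chow and 1.84 ± 0.24 on WTD (difference 0.05, adjusted p = 0.71 by permutation), and at 1.58 ± 0.16 with atorvastatin (difference -0.27, adjusted p = 0.0012).

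**Figure D3:**
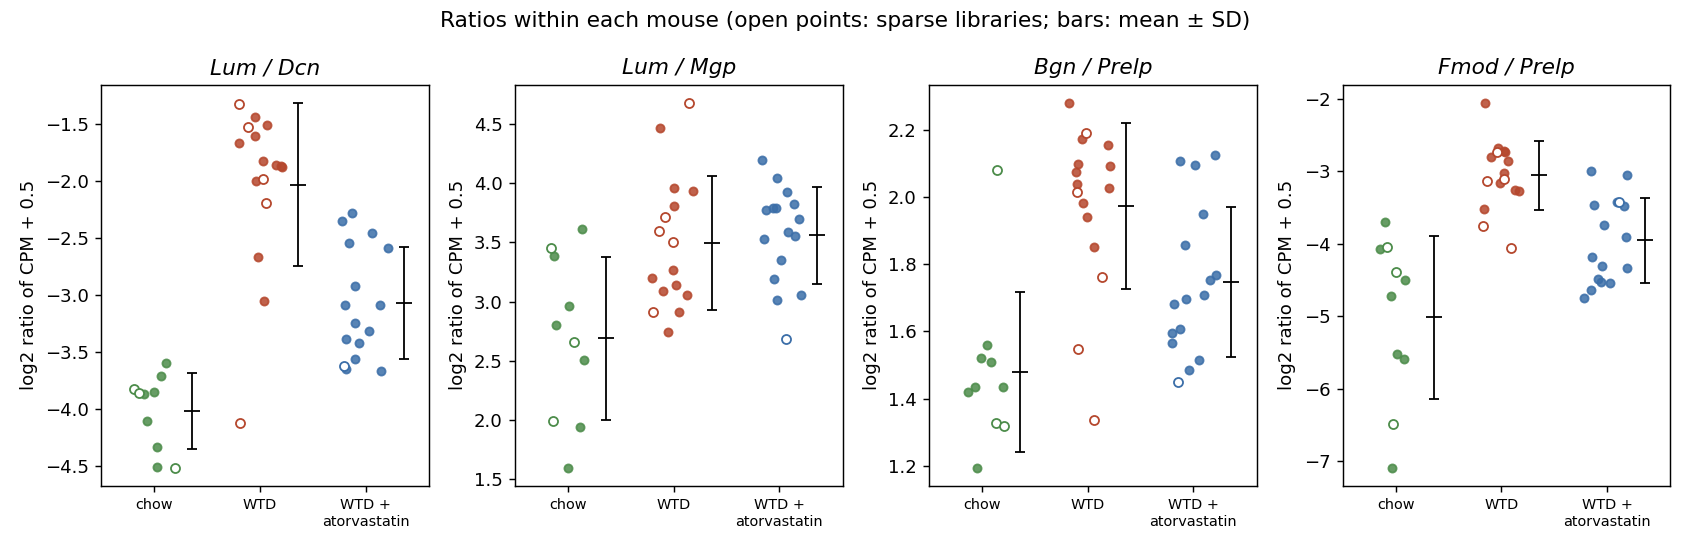
Log2 ratio of CPM plus 0.5 within each mouse (y axis) by group (x axis) for 4 pairs, with open points for sparse libraries and bars for mean ± SD. Lum against Dcn goes from -4.02 in chow to -2.03 on WTD and -3.07 with atorvastatin, whereas Lum against Mgp differs by 0.07 between the WTD groups.

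On WTD, with or without atorvastatin, many pairs of the genes also varied together from mouse to mouse. Like the fold changes, these correlations describe genes chosen with results in view. Pearson correlations of log2 CPM (plus 0.5) were tested by permutation (100000 resamples, adjusted over 63 tests, threshold 0.05). The share of correlated pairs among all tested genes was not computed. The counts of pairs therefore cannot show a trait particular to these genes. On WTD, 12 of 21 pairs were correlated and all 21 coefficients were positive (median 0.70, range 0.14 to 0.91). The highest was that of Lum and Mgp (r = 0.91, adjusted permutation p = 0.00063; Spearman rho = 0.88, adjusted permutation p = 0.00063), followed by Lum and Bgn (r = 0.83, rho = 0.76). Leaving out the 2 mice farthest from the median of the first gene, r of the 12 pairs was between 0.59 and 0.89. The mice left out depend on the first gene, so only pairs that share it can be ranked on the same mice. Among the pairs of Lum, Lum and Mgp (r = 0.70) were then below Lum and Bgn (r = 0.82), so their place above that pair rests on the 2 mice left out. Fmod and Ogn, with other mice left out, had r = 0.89. None of the 12 pairs included Prelp. Without the sparse libraries, 12 pairs passed as well, of which 3 included Prelp: those with Bgn (r = 0.84, n = 11, adjusted permutation p = 0.014), Fmod (r = 0.70, adjusted permutation p = 0.038) and Lum (r = 0.68, adjusted permutation p = 0.038). Lum with Dcn, Dcn with Bgn and Dcn with Fmod then missed the threshold. Over all 16 WTD-fed mice, Dcn with Bgn missed it by Spearman rho (adjusted permutation p = 0.056). Bgn with Ogn and Ogn with Mgp passed by rho (adjusted permutation p = 0.02 and 0.024) but not by Pearson r.

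With atorvastatin, 10 of 21 pairs were correlated (median r 0.51, range -0.10 to 0.84). Lum and Bgn were again close (r = 0.84, adjusted permutation p = 0.00063; rho = 0.86, adjusted permutation p = 0.0011). Bgn and Prelp reached r = 0.80 (adjusted permutation p = 0.0019; rho = 0.84, adjusted permutation p = 0.0016), and none of the 10 pairs included Ogn. Without the sparse libraries 9 pairs passed, and Dcn with Bgn missed the threshold (r = 0.54, n = 15, adjusted permutation p = 0.085). By Spearman rho, the pairs of Mgp with Lum, Dcn and Bgn missed it (adjusted permutation p = 0.062, 0.062 and 0.097). Without the 2 farthest mice, r of Dcn and Mgp fell from 0.65 to 0.34, and r of the other 9 pairs was between 0.53 and 0.77. The size of the coefficient of Dcn and Mgp thus depends on those mice, whose removal also narrows the range of Dcn. Without the sparse library it was 0.69 (n = 15, adjusted permutation p = 0.018). In chow, 1 of 21 pairs passed, Bgn with Prelp (r = 0.75, n = 10, adjusted permutation p = 0.039; rho = 0.89, adjusted permutation p = 0.0062). The difference of coefficients between groups was not tested, and the groups differ in size.

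**Figure D4:**
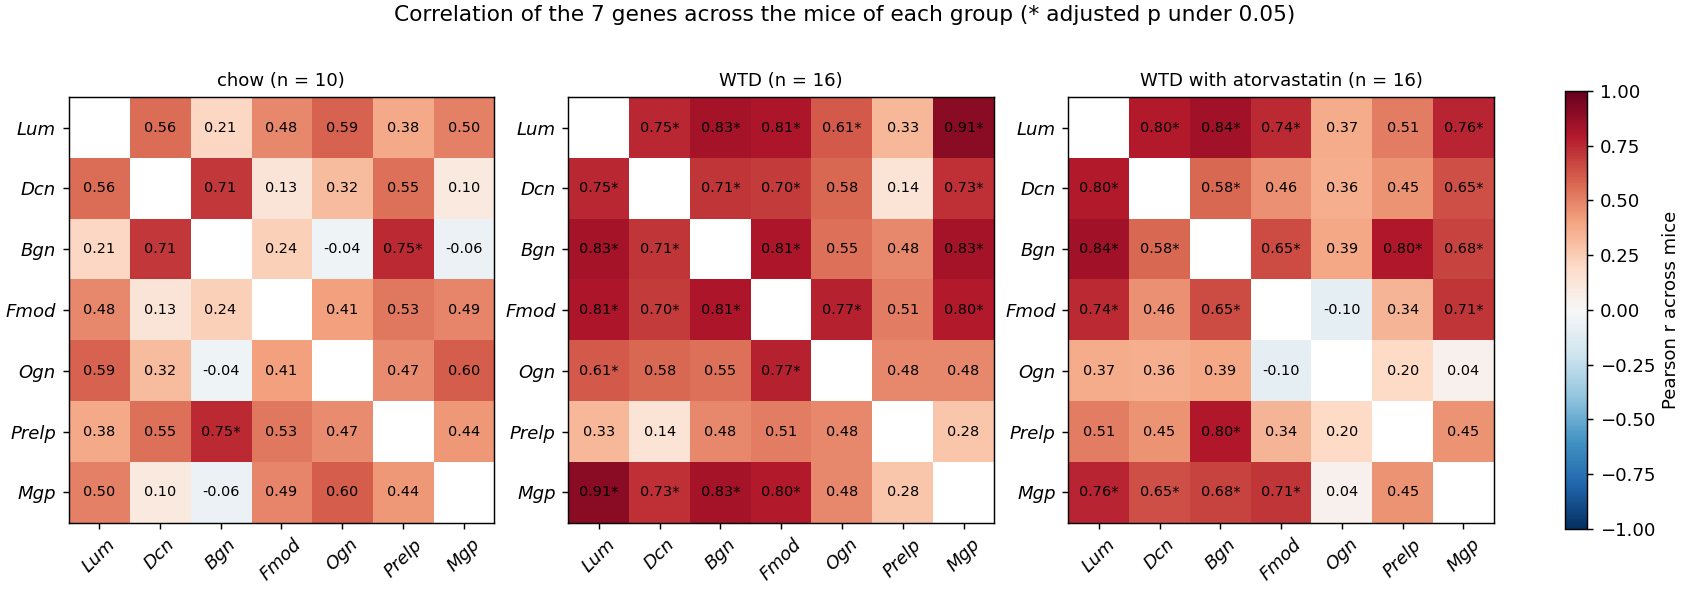
Pearson r between each 2 of the 7 genes across the mice of each group, coloured from -1 to 1, with a star for an adjusted permutation p under 0.05. Stars mark 1 pair in chow, 12 pairs on WTD and 10 pairs with atorvastatin.

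Outside the 7 genes, those most like each member were sought among 10782 genes with a mean of at least 5 CPM, by the Pearson r of log2 CPM over 42 mice after removing the group means. This is a description, since all points share their library with both genes and 9 libraries are sparse. For Lum, the nearest were Dpt (dermatopontin, r = 0.84), Col6a3 (a chain of collagen VI, r = 0.84) and Fhl2 (r = 0.84). Bgn was nearest to Ccdc80 (r = 0.82), Col1a2 (r = 0.81) and Sparc (a collagen-binding glycoprotein, r = 0.80). Ccdc80 was also nearest to Dcn (r = 0.78), before Sntg1 (r = 0.77) and Igfbp7 (r = 0.75). For Mgp the nearest were Fstl1 (r = 0.84), Mfge8 (r = 0.81) and Spp1 (osteopontin, r = 0.80). Fmod was nearest to Ccdc3 (r = 0.76), Itga8 (r = 0.73) and Myh10 (r = 0.72). Prelp was nearest to Galnt6 (r = 0.76), Tnfrsf11a (r = 0.69) and Ehf (r = 0.69), and Ogn to genes that include Adamts2 (r = 0.82) and G6pc3 (r = 0.79).

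The other small leucine-rich proteoglycans were mostly near the limit of detection. Of 12 listed genes, 6 had enough counts for testing and 1 rose on WTD, namely Omd, the gene of osteomodulin beside Ogn (0.174 ± 0.227 CPM in chow, 1.12 ± 0.807 on WTD and 1.07 ± 0.694 with atorvastatin, adjusted p = 0.0061). None of the 6 was called with atorvastatin against WTD. Tsku, a secreted protein made by hepatocytes, was the most abundant with 51.6 ± 16.7 CPM in chow, 57.0 ± 20.5 on WTD and 86.9 ± 62.6 with atorvastatin. Podn was at 11.8 ± 3.47, 13.5 ± 5.46 and 15.2 ± 4.82 CPM in the same order. Ecm2 (1.87 to 3.00 CPM), Podnl1 (1.13 to 2.07 CPM) and Chadl (0.745 to 0.971 CPM) were low by their group means. Aspn, Optc and Nyx had group means of at most 0.460 CPM, Chad of at most 0.0324 CPM, and Kera and Epyc had no count.

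Enzymes that build the sugar chains are given as counts of a fixed list. For this and every other list, the shares of all tested genes called were 33.5% on WTD against chow and 7.10% with atorvastatin against WTD. Of 25 tested genes for the linker and for chondroitin and dermatan sulfate, 6 rose and 2 fell on WTD, which is near the share of all genes. Chst11, a chondroitin sulfotransferase, went from 0.499 ± 0.447 to 7.05 ± 2.78 CPM (adjusted p = 5.3e-10) and Dse, the dermatan sulfate epimerase, from 12.2 ± 3.94 to 27.2 ± 5.98 CPM (adjusted p = 4.2e-10). Papss2, which makes the sulfate donor, fell by 0.92 on the log2 scale on WTD (adjusted p = 2.3e-06) and was the 1 gene of the list called with atorvastatin, 1.63-fold higher than on WTD (adjusted p = 0.0003). Of 6 tested keratan sulfate enzymes, B3gnt7, B4galt1 and Chst1 rose on WTD and none was called with atorvastatin. B4galt1 went from 54.5 ± 12.0 to 65.0 ± 7.57 CPM, while B3gnt7 (no count in chow, 0.421 ± 0.525 CPM on WTD) and Chst1 (0.231 ± 0.364 and 1.87 ± 3.08 CPM) were near the limit of detection.

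Of 5 tested genes of the vitamin K cycle and other Gla proteins, 2 rose on WTD, 1 fell and none was called with atorvastatin. Ggcx, the carboxylase that modifies matrix Gla protein, was at 86.5 ± 9.08 CPM in chow, 58.2 ± 12.7 on WTD and 72.2 ± 10.7 with atorvastatin (adjusted p = 2.6e-06 on WTD and 0.011 with atorvastatin). Gas6, a Gla protein and ligand of the TAM receptors, was 1.59-fold higher on WTD (adjusted p = 1e-09), and Pros1, protein S, 1.35-fold higher (adjusted p = 0.00031). Vkorc1 had 3 counts in all mice together and overlaps Gm21974 on the same strand, so no level is given for it.

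Matrix and growth factor partners bind these proteins or are bound by them. Of 18 tested genes, 15 rose and 1 fell on WTD, and 3 rose and 4 fell with atorvastatin against WTD. Col1a2, a chain of collagen I, was at 31.7 ± 6.65 CPM in chow, 342 ± 91.3 on WTD and 201 ± 93.3 with atorvastatin (adjusted p = 8.7e-16 and 0.0018). The other 3 that fell with atorvastatin were Col6a1 (log2 fold change -0.49), Col6a2 (-0.66) and Eln, elastin (-0.82). Those that rose were Col14a1 (0.36), Fn1, fibronectin, which hepatocytes also make (0.52), and Bmp2 (0.50). Col3a1, a chain of collagen III, was 7.11-fold higher on WTD (adjusted p = 9.3e-16) and had a log2 fold change of -0.53 with atorvastatin (adjusted p = 0.013). Col6a3 was 3.88-fold higher on WTD (adjusted p = 6.5e-14), with -0.45 with atorvastatin (adjusted p = 0.014).

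Of 11 receptors of soluble decorin and biglycan, 6 rose and 3 fell on WTD. Cd14, the endotoxin co-receptor, was at 5.52 ± 3.07 CPM in chow, 45.9 ± 8.95 on WTD and 23.5 ± 8.82 with atorvastatin (adjusted p = 2.7e-11 and 0.0027). P2rx4 was 2.21-fold higher on WTD and lower with atorvastatin (log2 fold change -0.34, adjusted p = 0.0028), and Kdr was higher with atorvastatin (0.46, adjusted p = 0.0037). Tlr2 was 6.79-fold higher on WTD (adjusted p = 9.9e-11) and had a log2 fold change of -0.69 with atorvastatin (adjusted p = 0.033). Of 13 tested proteases that process or cleave these proteins, 7 rose and 1 fell on WTD, and 3 fell with atorvastatin. The latter were Mmp2 (log2 fold change -0.81), Mmp14 (-0.56) and Adamts5, an aggrecanase (-0.97). In WTD-fed mice these genes were 7.80-fold, 2.05-fold and 4.04-fold higher than in chow-fed mice, in the same order. Bmp1, the procollagen C-proteinase, fell on WTD from 215 ± 39.0 to 114 ± 16.0 CPM (adjusted p = 1e-10). Of 18 tested other proteoglycan core proteins, 10 rose and 4 fell on WTD and none was called with atorvastatin. Sdc3, syndecan 3, was 3.59-fold higher (adjusted p = 6.1e-21) and Hspg2, perlecan, 1.85-fold higher (adjusted p = 4.1e-10). Sdc2, syndecan 2, fell by 0.87 on the log2 scale (adjusted p = 1.8e-11).

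Markers of the cells that could make these transcripts moved as well, and their part in the results was not tested. Counts of called markers stand beside 33.5% of all tested genes called on WTD and 7.10% with atorvastatin. The summed level of 9 portal fibroblast markers ranged from 14.1 to 57.6 CPM (median 22.9) in chow, from 44.0 to 213 CPM (median 132) on WTD and from 43.9 to 120 CPM (median 62.0) with atorvastatin. Dpt, which was also the gene most like Lum, made the largest part of this sum. Its level was 10.3 ± 5.06 CPM in chow, 68.7 ± 29.8 on WTD and 34.0 ± 12.2 with atorvastatin. Of these 9 markers, 6 rose on WTD, and Cd34, Dpt and Mfap4 fell with atorvastatin. By sign alone, 8 were higher on WTD than in chow, all but Clec3b. The 10 stellate cell markers summed to 198 to 431 CPM (median 308) in chow, 369 to 523 CPM (median 444) on WTD and 374 to 506 CPM (median 425) with atorvastatin, and 3 of them rose and 1 fell on WTD. Cygb and Pdgfrb of this list fell under atorvastatin and Reln rose. None of the markers in either list was at 0 in all mice of a group.

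Among the remaining lists, 5 of 6 macrophage markers rose on WTD, and 4 fell and 1 rose with atorvastatin (summed medians 310.5, 1951 and 1211 CPM in chow, WTD and atorvastatin). All 5 hepatocyte markers fell on WTD and 4 rose with atorvastatin (summed medians 116900, 62560 and 101700 CPM). The 4 cholangiocyte markers all rose on WTD and none was called with atorvastatin. Of 5 tested smooth muscle markers, 1 rose and 1 fell on WTD, and of 5 mesothelial markers 1 rose. Of 5 markers of sinusoidal endothelium, 1 rose and 2 fell on WTD, and 1 rose with atorvastatin. Vascular endothelium had 1 of 3 higher on WTD, red blood cells 2 of 3, and adipocytes the 1 tested gene, Cidea, which fatty hepatocytes also express. None of the 4 T cell and 3 B cell markers was called in either comparison.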

How the data were processed

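Per the labels and the methods of the study, the authors made strand-specific libraries from liver mRNA, trimmed the reads with Trimmomatic, mapped them on GRCm38 (STAR 2.5) and assigned them to genes (HTSeq 0.6.1p1). The deposited values are raw counts, without normalization. Reads in no gene (2.28%), ambiguous reads (5.96%) and reads aligned more than once (4.68%) stayed out of totals and tests. Of 54446 genes, 54409 were matched to GENCODE vM21. Weak genes were removed by filterByExpr (at least 10 counts, total 15), and counts were scaled by TMM and tested in edgeR 4.0.16 (quasi-likelihood, robust) over all 42 mice without covariates. Intervals are 1.96 standard errors. CPM use TMM-scaled library sizes. The mice are separate animals. The 7 genes, the gene lists and the tests were chosen with earlier results of these data known. The genes named are the 7 members, and of each list those called with atorvastatin and the 3 with the smallest p on WTD, and every other small leucine-rich proteoglycan. Of the cell marker lists, counts and sums are given. Like genes are the 3 with the highest r, of which 1 is not reported here. The scripts were tested on simulated data. Alternatives were DESeq2 1.42.0, limma-voom 3.58.1 with sample quality weights, RLE normalization, no filter on low counts, only the 2 groups compared, no sparse libraries, each mouse left out, a threshold of 0.05, a pseudocount of 1 CPM and partial correlations.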

Additional observations from a re-analysis of the deposited data

Results flagged for a closer look

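Dcn in replicate 6 of the chow group was 315 CPM, and the gap to the next of the 10 chow-fed mice was 0.493 of the range, above Dixon's critical value of 0.466. This library was sparse. The test was run on the highest and the lowest mouse for 7 genes in chow, the one group of 10 or fewer, and chance marks about 1 group in 20. Leaving the mouse out gave Dcn a log2 fold change of 1.04 on WTD against chow, beside 0.99 with it.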

How the results depend on the processing

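The 6 members called on WTD against chow, and the 5 called with atorvastatin against chow, were called under each of the 6 other fits and without any 1 of the 42 mice. With atorvastatin against WTD, Lum, Dcn and Mgp were called in each of these fits. By limma-voom, 5 members were called, with Bgn (log2 fold change -0.34, adjusted p = 0.0011) and Fmod added, and with only the 2 groups compared, 4 were called, with Fmod added. The genes called in this comparison numbered 1106, and 3145 by limma-voom, 1664 without the sparse libraries, 2021 at a threshold of 0.05, and 913 to 1575 without any 1 mouse, the latter without WTD replicate 15. Genes called on WTD against chow numbered 4952 to 5384 without any 1 mouse, and 3651 to 4101 with atorvastatin against chow. Of the calls with atorvastatin against WTD, 68.2% were higher, against 51.2% by DESeq2, 54.9% under RLE and 52.8% with only the 2 groups. With atorvastatin against WTD, the log2 fold change of Prelp changed sign, at -0.033 by DESeq2 and under RLE and 0 to 3 decimals with only the 2 groups, and between -0.014 and 0.026 without any 1 mouse. That of Ogn was 0.025 without the sparse libraries, and between -0.117 and 0.027 without any 1 mouse. The cause was not tested. Of the pairs, 2 instead of 1 were correlated in chow given the share of weak genes at 0, and 13 instead of 12 on WTD. Without the sparse libraries, 9 instead of 10 were correlated with atorvastatin. In that setting, 17 instead of 14 ratios (WTD) and 17 instead of 15 (atorvastatin) differed. No member had a median under 1 CPM in any group. The fewest counts of Ogn (0), Fmod (0) and Mgp (6) came from chow replicate 2, the sparsest library, where 57.29% of weak genes had no count at a total of 17342797 counts. No paired analysis was possible because the labels pair no mice and replicate numbers follow only the order of samples.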
